A study of Mus musculus with 6 samples.

Results

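The genes described here act in the outermost zone of the adrenal cortex and in the hormone system that controls it. They were chosen by name, with earlier results of these data known. Every probe was taken whose symbol in the deposited signal table equals Ren1, Agt, Ace, Agtr1a, Agtr1b, Agtr2, Rgs4, Cyp11b2, Vsnl1 or Dab2. This gave 17 of 45281 probes for the 10 genes. Illumina bead arrays read RNA of whole adrenal glands from B6.FVB mice, all of them adult virgin females. The labels describe 3 samples as conditional knockout (cKO), with Gata6 deleted in the gland, and 3 as controls of normal genotype. Gata6 encodes a zinc finger transcription factor that binds GATA motifs. The design sets glands with the deletion against normal glands. The driver of the deletion, the exact genotype of the controls and whether glands were pooled could not be learned from the labels. Nor do they state that each sample is a different animal. The p-values therefore describe the spread among these 6 samples, and this spread may be technical.

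The renin-angiotensin system begins with angiotensinogen (Agt), which the protease renin (Ren1) cuts and angiotensin-converting enzyme (Ace) trims to angiotensin II. This peptide acts through type 1 receptors, of which mice have a pair of genes, Agtr1a and Agtr1b, and through a type 2 receptor, Agtr2. In the zona glomerulosa, the thin outer zone under the adrenal capsule, type 1 receptors signal through Gq proteins and calcium to raise the output of aldosterone, whose last steps are carried out by aldosterone synthase (Cyp11b2). Rgs4 shortens Gq signals, Vsnl1 is a neuronal calcium sensor protein, and Dab2 is an endocytic adaptor known as a glomerulosa marker in rodents.

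Levels below are log2 values of background-corrected, quantile-normalized signals, and differences are those of the arrays labelled cKO minus the control arrays, with 3 arrays in each group. A probe was tested if its deposited detection p-value was under 0.05 on at least 3 of the 6 arrays. That left 13 of the 17 probes and 9 of the 10 genes, out of 13327 genes tested, and each gene is represented by its brightest tested probe. The threshold was an adjusted p under 0.05 with limma's moderated test, Benjamini-Hochberg over all 19210 tested probes. The number of arrays limits the precision of every value.

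The arrays held between 18314 and 19459 detected probes each. Cortical genes (Star, Cyp11b1, Cyp21a1) and the medullary gene Th were detected on all 6 arrays. Of 8 glomerulosa markers looked up, 6 were detected on all arrays (Cyp11b2, Agtr1a, Vsnl1, Dab2, Shh and Wnt4) and Agtr1b on 5. Hsd3b6, the steroid dehydrogenase isoform of this zone, was detected on 0. So was the 1 probe of Fdx1, listed here as a gene of the general cortex. Here and below, detection on 0 arrays describes the probes and does not show that a gene or tissue is absent. The single Gata6 probe read 0.40 higher on the arrays labelled cKO (SE 0.10, limma, adjusted p = 0.0545). This goes against the label. Whether the probe lies inside the deleted stretch is not stated in the sources used, so it may be no check at all, and all directions are given by label.

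On the arrays labelled cKO the receptor gene Agtr1b and the calcium sensor gene Vsnl1 fell, and the angiotensinogen gene Agt rose. Agtr1b was lower by 1.68 on the log2 scale, or 3.20-fold, Vsnl1 by 2.15-fold, and Agt was 2.41-fold higher. The other 6 tested genes, Cyp11b2 among them, did not pass the threshold. The members past the threshold were thus 3 of 9, where 6.98% of all 13327 genes tested passed. Because the genes were chosen with earlier results of these data known, these shares cannot be read as a test. The median difference of the 9 genes was 0.10 against -0.013 over all genes. By direction, 1 of 9 rose and 2 fell, against 4.34% and 2.64% of all genes, and by probe 3 of 13 passed against 6.49% of all probes. The 2 groups of arrays did not overlap in these 3 genes, and they did not overlap in 29.0% of all genes tested. The glands were measured whole, so fewer cells of a type and less RNA per cell cannot be told apart.

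**Figure D1:**
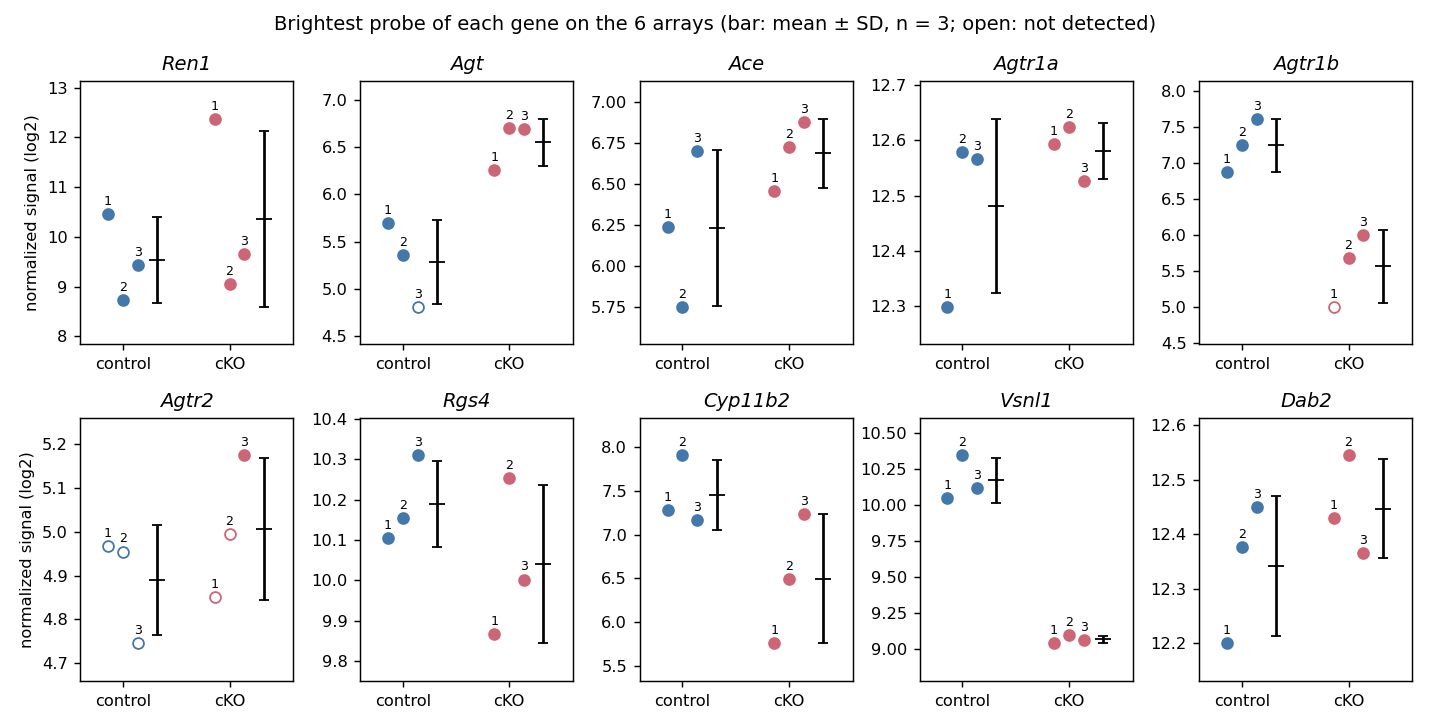
Normalized signal (log2) of the brightest probe of each of the 10 genes on the 3 control arrays (blue) and the 3 arrays labelled cKO (red); numbers are the replicate numbers, bars the mean ± SD (n = 3), and open circles arrays on which the probe was not detected. Each panel has its own axis, which does not start at 0. Agtr1b and Vsnl1 are lower and Agt is higher on all 3 arrays labelled cKO, and the groups overlap in the other panels.

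Promoter sequences are given for the 3 genes that passed, since the deleted protein binds DNA at GATA motifs. RefSeq windows (assembly GRCm38.p6) from 250 bases before to 50 bases after an annotated gene start were matched by symbol for 8 of the 10 genes. Cyp11b2 and Agtr1a had no entry. All 3 windows below lie on the minus strand and are written 5′ to 3′ along the gene, at chr3:20367128-20367427 for Agtr1b, chr12:11436529-11436828 for Vsnl1 and chr8:124569657-124569956 for Agt. RefSeq lists a second start of Vsnl1, whose window at chr12:11435602-11435901 is not printed. Capitals mark the letters TATAAA.
Agtr1b: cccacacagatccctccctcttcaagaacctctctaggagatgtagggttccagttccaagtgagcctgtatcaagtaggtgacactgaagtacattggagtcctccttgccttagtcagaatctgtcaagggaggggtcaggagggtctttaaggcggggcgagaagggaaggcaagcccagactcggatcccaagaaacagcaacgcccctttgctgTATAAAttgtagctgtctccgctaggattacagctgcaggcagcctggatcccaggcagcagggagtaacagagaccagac
Vsnl1: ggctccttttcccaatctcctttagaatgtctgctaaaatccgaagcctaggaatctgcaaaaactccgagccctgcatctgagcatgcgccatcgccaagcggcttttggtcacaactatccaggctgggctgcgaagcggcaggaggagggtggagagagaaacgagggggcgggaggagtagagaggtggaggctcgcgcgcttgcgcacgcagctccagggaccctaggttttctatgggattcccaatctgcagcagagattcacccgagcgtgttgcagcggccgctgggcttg
Agt: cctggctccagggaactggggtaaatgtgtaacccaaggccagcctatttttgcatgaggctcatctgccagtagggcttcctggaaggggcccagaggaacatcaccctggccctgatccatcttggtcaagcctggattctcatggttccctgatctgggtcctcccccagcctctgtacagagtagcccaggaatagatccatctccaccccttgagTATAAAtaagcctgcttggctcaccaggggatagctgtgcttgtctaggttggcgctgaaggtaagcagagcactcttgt
The letters TATAAA stood 31 bases before the start of Agtr1b and 30 bases before that of Agt, and not in the Vsnl1 window printed here. On either strand they occur in 13.6% of 32851 RefSeq promoter windows of this length. TATAAA also stood in the windows of Ren1 and Rgs4, and on the opposite strand in a window of Ace, members that did not pass. The bare letters GATA occurred once on either strand in each of the 3 printed windows, against 57.9% of all windows with at least 1. The second Vsnl1 window held 0 matches to any of the motifs searched. Longer GATA-factor motifs, which all contain GATA, were AGATAA with its variant AGATAG, and likewise TGATAA with its variant TGATAG. They were matched in 0 of the 3 printed windows on either strand, and 29.8% of all windows hold at least 1. Among the other members a Dab2 window held 2 such matches, TGATAA on the strand of the gene and AGATAA on the opposite strand. A match is no evidence of binding, and no match says only that these letters are absent from this window.

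The first step of the pathway is the cut by renin, which is best known from the kidney. The brighter Ren1 probe read 10.45, 8.72 and 9.43 on control replicates 1, 2 and 3, and 12.37, 9.06 and 9.66 on the replicates labelled cKO. The array labelled cKO replicate 1 lay far above all others, control replicate 1 came next, and the remaining arrays of the 2 groups overlapped. The difference was 0.83 (SE 0.78, 95% interval -0.94 to 2.60, limma, adjusted p = 0.575). Its spread was wide on both labels, at an SD of 0.87 among controls and 1.77 on the arrays labelled cKO. Without cKO replicate 1 alone the difference was -0.17 (limma, adjusted p = 0.851), so the sign on this brighter probe depended on that array. Without both arrays numbered 1 the difference on this probe was 0.29 (limma, adjusted p = 0.612).

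The dimmer Ren1 probe ordered the 6 arrays exactly as the brighter one did. Its values were 7.73, 6.28 and 6.88 for control replicates 1, 2 and 3, against 9.41, 6.78 and 7.33 for the replicates labelled cKO. Its difference was 0.88 (SE 0.63, adjusted p = 0.453). In deposited signal the brighter probe ran from 380 on control replicate 2 to 4871 on cKO replicate 1. Of 9 kidney markers, Umod, Slc34a1, Aqp2, Kap, Nphs1 and Slc22a6 were detected on 0 arrays. The summed signal of the other 3 lay at 573 to 728 on control arrays and at 530 to 679 on those labelled cKO. Whether kidney tissue has a part in the Ren1 values was not tested. Some mouse strains carry a second renin gene, Ren2, nearly identical to Ren1. A look-up of Ren2 found 0 probes under the symbols used here, so it could not be read by itself. Without the probe sequences it is unknown whether the Ren1 probes read both genes.

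Agt encodes the protein from which angiotensin peptides are cut and is known from liver, fat and stromal cells. The gene lies at chr8:124556587-124569706 in RefSeq's GRCm38.p6. Its 1 probe read 5.69, 5.35 and 4.81 on control replicates 1, 2 and 3, and 6.26, 6.70 and 6.69 on the replicates labelled cKO. All 3 arrays labelled cKO lay above the highest control array. Agt rose by 1.27 (SE 0.24, limma, adjusted p = 0.0194). It was not detected on control replicate 3, and the lowest detected signals of the control arrays lay at 5.16 to 5.25, so the size of the rise rests partly on background. The call was lost without control replicate 2 (1.30, adjusted p = 0.0590), without cKO replicate 2 (1.19, limma, adjusted p = 0.0683) and without cKO replicate 3 (1.20, limma, adjusted p = 0.0812).

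Markers of fat and of mesenchyme also differed between the labels. Of 7 tested fat cell markers 4 rose and 0 fell, among them Adipoq by 1.38, Cidec by 1.49 and Lpl by 1.34, and their summed signal ran from 26626 to 34554 on control arrays and from 49853 to 78033 on those labelled cKO. The call on Lpl was lost with robust variance (limma, adjusted p = 0.139) and without any one of the 3 control arrays or cKO replicate 3 (up to 0.0987). That on Cidec was lost with robust variance (limma, adjusted p = 0.0743), without control replicate 1 or 2 (up to 0.0750) and without both arrays numbered 1 (0.0680). Of the 7 tested fat cell markers, 6 lay above 0. Ucp1 differed by -0.25 (SE 0.95) without passing, and was named after its value had been seen. It read 10.47, 10.18 and 10.94 on control replicates 1, 2 and 3, and 10.83, 12.35 and 7.66 on the replicates labelled cKO. Of 9 fat markers listed, Fabp4 and Retn were detected on 0 arrays. Of 7 tested capsule and mesenchyme markers 6 rose and 0 fell, with Lum at 1.94 (SE 0.23), Tcf21 at 1.67 and Pdgfra at 1.30 in front. A dimmer Pdgfra probe gave 0.32 (limma, adjusted p = 0.184) and the mean of both 0.81, and the call on Pdgfra was lost without replicate 3 of the controls (0.0511) or of those labelled cKO (0.0521), and with both arrays numbered 1 left out (0.0897). Their summed signal ran from 12284 to 13360 on control arrays and from 20225 to 27881 on those labelled cKO. Of the 8 listed, Gli1 was detected on 0 arrays. Of 6 liver markers, Alb, Apoa1, Ttr and Tat were detected on 0 arrays. The part of fat and mesenchymal cells in the rise of Agt was not tested.

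Ace removes the last residues that turn angiotensin I into angiotensin II, and in most organs it sits on endothelium. Its 1 tested probe read 6.24, 5.75 and 6.70 on control replicates 1, 2 and 3 and 6.46, 6.72 and 6.88 on the replicates labelled cKO. Control replicate 3 lay within the range of the arrays labelled cKO, so the groups overlapped. The difference of 0.46 (SE 0.24, 95% interval -0.10 to 1.01, adjusted p = 0.312) did not pass. It was 0.22 without control replicate 2 and 0.69 without control replicate 3, and passed in neither case. Both further Ace probes were detected on 0 arrays. Of 9 tested endothelial markers 0 passed in limma, and the median difference was 0.10.

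Of the type 1 receptor genes, Agtr1b passed the threshold and Agtr1a did not. Agtr1b (chr3:20314473-20367177 in RefSeq's GRCm38.p6) read 6.87, 7.25 and 7.61 on control replicates 1, 2 and 3, and 5.0, 5.68 and 6.0 on the replicates labelled cKO. Every array labelled cKO lay below every control array. Agtr1b fell by 1.68 (SE 0.28, limma, adjusted p = 0.0116). In deposited signal its probe gave 93.8 to 186 on control arrays and 13.8, 38.4 and 55.2 on those labelled cKO. It was not detected on cKO replicate 1, and the lowest detected signals of the arrays labelled cKO lay at 5.11 to 5.13, so the size of the fall is uncertain. With an offset of 50 in place of 16, which pulls dim probes together, the fall was 1.18 and still passed (limma, adjusted p = 0.0102). It passed without any single array, at adjusted p-values from 0.0154 to 0.0442.

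Agtr1a (chr13:30336356-30382867) read 12.30, 12.58 and 12.57 on control replicates 1, 2 and 3, and 12.59, 12.62 and 12.53 on the replicates labelled cKO. The groups overlapped, with control replicate 1 the lowest array. The difference was 0.10 (SE 0.10, 95% interval -0.12 to 0.32, limma, adjusted p = 0.587), and its sign turned under median scaling (-0.03). The interval holds no fall as large as that of Agtr1b. Within an array, the log2 value of Agtr1b minus that of Agtr1a changed by -1.78 between the labels, with groups that did not overlap (exact permutation test, two-sided, p = 0.1, the smallest that 3 against 3 arrays allow). Both genes code for nearly identical receptors. How far either probe reads the other transcript is unknown without the probe sequences.

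Agtr2, the type 2 receptor gene, could not be tested. Its probe passed detection on 0 control arrays and only on replicate 3 of those labelled cKO, at 5.17, which is just above the lowest detected signal. Its level elsewhere lay between 4.75 and 4.99, at background.

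Downstream of the receptors, Rgs4 speeds up the return of Gq proteins to their resting state. It read 10.10, 10.15 and 10.31 on control replicates 1, 2 and 3, and 9.87, 10.25 and 10.002 on the replicates labelled cKO. The ranges overlapped through cKO replicate 2. The difference of -0.15 (SE 0.12, 95% interval -0.43 to 0.13, adjusted p = 0.519) did not pass.

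Aldosterone synthase, the enzyme that defines the zona glomerulosa, was lower on 2 of the 3 arrays labelled cKO. The gene lies at chr15:74850618-74856231 in the same assembly. The brighter Cyp11b2 probe read 7.28, 7.90 and 7.16 on control replicates 1, 2 and 3, and 5.76, 6.50 and 7.23 on the replicates labelled cKO. Replicate 3 of those labelled cKO lay within the control range, and the other 2 lay below it. The difference was -0.95 (SE 0.35, 95% interval -1.75 to -0.15), at an unadjusted p of 0.0253 and an adjusted p of 0.152 in limma, and so did not pass over all probes. Without cKO replicate 3 it was -1.32 (limma, adjusted p = 0.0724), and without cKO replicate 1 it was -0.58 (limma, adjusted p = 0.278).

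The dimmer Cyp11b2 probe gave the same picture. It read 6.14, 7.12 and 6.18 on control replicates 1, 2 and 3, and 4.68, 5.36 and 6.44 on the replicates labelled cKO, with cKO replicate 1 not detected. Its difference was -0.98 (SE 0.43, adjusted p = 0.219). Cyp11b1, the sister enzyme that makes corticosterone in the middle zone, differed by 0.01 (SE 0.09, adjusted p = 0.980), and by -0.20 under median scaling. Within an array, Cyp11b2 minus Cyp11b1 changed by -0.96 with overlapping groups (exact permutation test, two-sided, p = 0.2, where the smallest possible is 0.1). The 2 transcripts are similar in sequence, and how far the Cyp11b2 probes read Cyp11b1 is unknown without the probe sequences.

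**Figure D2:**
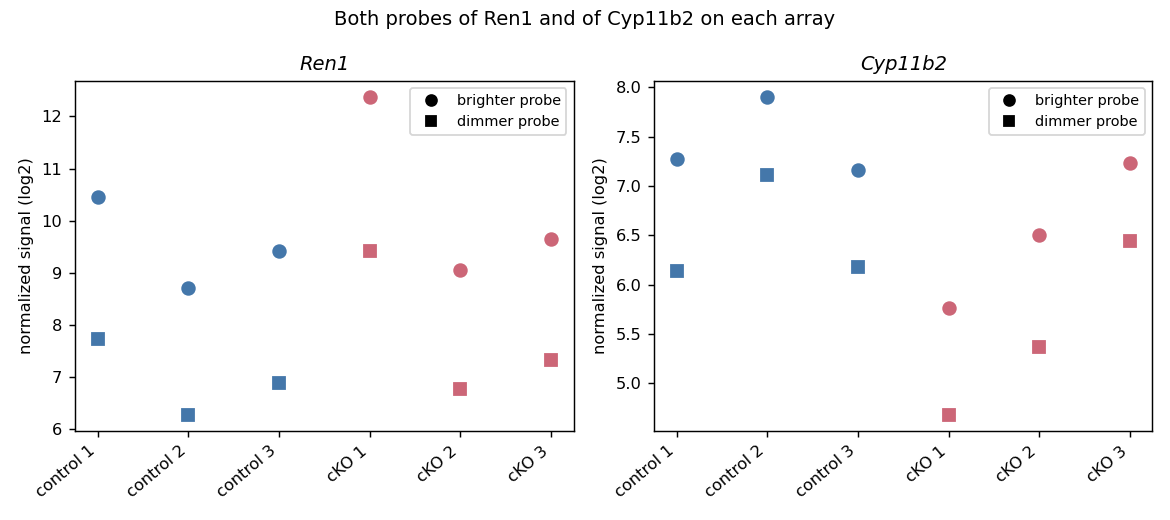
Normalized signal (log2) of both probes of Ren1 (left) and of Cyp11b2 (right) on each control array (blue) and each array labelled cKO (red); circles are the brighter and squares the dimmer probe, and the axes do not start at 0. The Ren1 probes put the arrays in the same order, with cKO replicate 1 highest, and on both Cyp11b2 probes cKO replicate 1 is lowest while cKO replicate 3 lies within the control range.

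The genes with the profile nearest to that of Cyp11b2 over the 6 arrays, each centred on its own mean, were C2cd4a, Ms4a7, Nxph1 and Acer1 out of 10922 named genes compared. Their root mean square distance from it was 0.17, 0.18, 0.29 and 0.31 log2 units, where the profile of Cyp11b2 itself had a spread of 0.68. C2cd4a, at -0.88 (adjusted p = 0.181), shared the low cKO replicate 1 (5.41) and the cKO replicate 3 within the control range (6.87). Ms4a7 passed at -1.10 (SE 0.27, limma, adjusted p = 0.0459) with groups that did not overlap, but lost the call in 9 of 16 alternatives, among them median scaling (0.0588), the replicate block (0.0635) and each left-out array but cKO replicate 3 (up to 0.144, all limma, adjusted p). Nxph1 (-0.82, adjusted p = 0.0856) did not pass. Acer1 was detected on 0 arrays labelled cKO and was at least 1.31-fold lower (limma, adjusted p = 0.0376). It met the detection filter only through the control arrays. These 4 genes were picked by the same values that limma tested, so their p-values are no independent support. The call on Acer1 was lost in 8 of 15 alternatives, among them an offset of 50 (0.0505), the replicate block (0.0535) and each left-out array but control replicate 1 (up to 0.119, all limma, adjusted p). With 6 arrays and so many genes some profiles lie close to any given one.

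Vsnl1 fell to nearly the same level on each array labelled cKO. The gene lies at chr12:11325257-11436578. It read 10.05, 10.34 and 10.12 on control replicates 1, 2 and 3, and 9.04, 9.09 and 9.06 on the replicates labelled cKO. The arrays labelled cKO had an SD of 0.03, and all lay below the lowest control array. Vsnl1 fell by 1.10 (SE 0.11, limma, adjusted p = 0.00168). In deposited signal it gave 1009 to 1250 on control arrays and 477 to 577 on those labelled cKO. It was detected on all 6 arrays and passed under all 16 alternatives run, with differences from -1.17 to -1.02.

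Dab2 (chr15:6299788-6440715) did not pass the threshold. Its brightest probe read 12.20, 12.38 and 12.45 on control replicates 1, 2 and 3, and 12.43, 12.54 and 12.37 on the replicates labelled cKO. The groups overlapped throughout. The difference was 0.11 (SE 0.09, 95% interval -0.11 to 0.32, adjusted p = 0.556), and -0.03 under median scaling. The other 2 tested probes gave 0.14 and 0.10 without passing, and the last Dab2 probe was detected on 0 arrays.

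**Figure D3:**
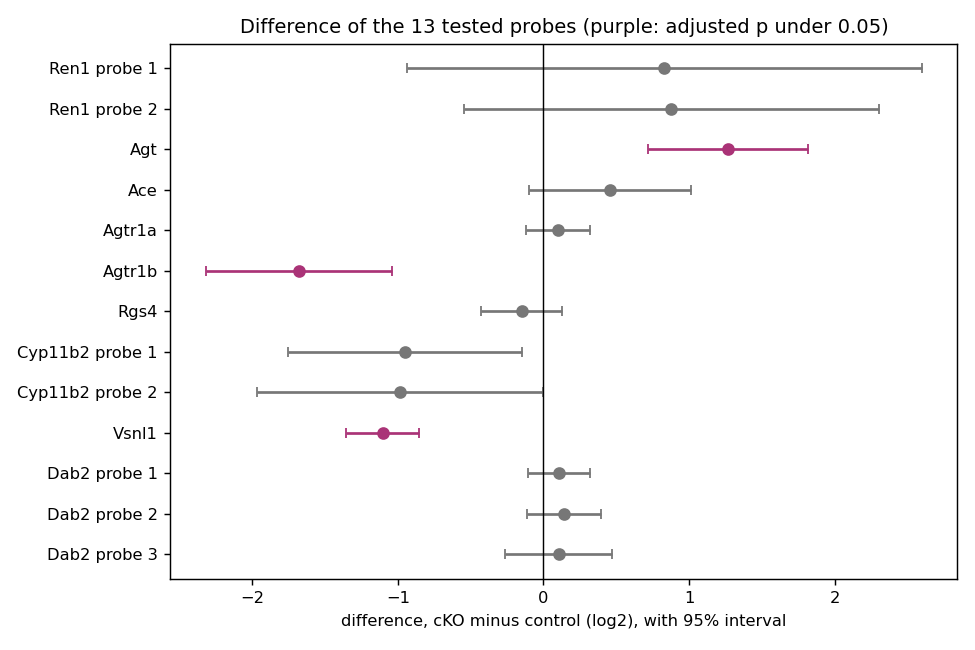
Difference between the arrays labelled cKO and the control arrays (log2, x axis) for the 13 tested probes of 9 genes, with 95% intervals from the limma model; purple marks an adjusted p under 0.05. Agtr1b and Vsnl1 lie below 0 and Agt above it, the 3 probes of Dab2 and the probe of Agtr1a lie near 0 with narrow intervals, and both Ren1 probes have the widest intervals.

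Other genes of the same functions were looked up in 6 lists holding 101 genes besides the members. Of these 74 were tested, 6 rose and 0 fell, so that 8.11% passed against 6.98% of all genes in either direction and 4.34% upward. Their median difference was 0.03. The count of 6 rests on a few arrays: it was 3 without control replicate 2, 2 without cKO replicate 2, 2 without cKO replicate 3, and 10 without both arrays numbered 1.

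Among 16 tested genes of the zona glomerulosa and aldosterone control, 2 rose and 0 fell, and the median was 0.05. Shh, the hedgehog ligand made by glomerulosa cells, rose by 0.58 (SE 0.12, adjusted p = 0.0298 in limma), and Axin2, a target of Wnt signalling, by 0.62 (SE 0.14, adjusted p = 0.0381 in limma). The calls on Shh and Axin2 were lost in 6 of 16 alternatives each, with adjusted p-values up to 0.105 and 0.126, and both were lost with the replicate number as a block. Wnt4, the glomerulosa Wnt ligand, differed by 0.06 (SE 0.21), and the potassium channel gene Kcnk3 by -0.19 (SE 0.12), neither past the threshold. Both were picked out with their values known. The direction of Shh was thus opposite to that of Agtr1b and Vsnl1. Of the 16 tested genes of this list, 9 lay above 0. What lies behind the differing directions was not tested.

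Of 13 tested peptidases, receptors and partners of the renin-angiotensin system, 2 rose and 0 fell, with a median of 0.00. Mme, neprilysin, which breaks down angiotensin and other peptides, read 7.56, 7.44 and 6.71 on control replicates 1, 2 and 3 and 8.38, 8.73 and 8.56 on the replicates labelled cKO. It rose by 1.32 (SE 0.23, limma, adjusted p = 0.0125), while a dimmer probe of it gave 0.53 (limma, adjusted p = 0.0556). The call was lost without cKO replicate 2 and without cKO replicate 3, at adjusted p-values of 0.05004 and 0.0524. Hsd11b2, which inactivates glucocorticoids and so protects the mineralocorticoid receptor, rose by 1.37 (SE 0.19, limma, adjusted p = 0.00542), and its second probe rose by 1.40. Its brighter probe read 5.71, 5.76 and 5.79 on control replicates 1, 2 and 3, close to background, so the size is uncertain. With an offset of 50 the rise was 0.99 (limma, adjusted p = 0.00677). Agtrap, whose product binds the type 1 receptor, differed by -0.72 without passing (SE 0.19, limma, adjusted p = 0.0564), and was named after its value had been seen. Mas1, Ctsg, Klk1 and the mineralocorticoid receptor gene Nr3c2 were detected on 0 arrays.

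Of 14 tested genes of Gq and phospholipase C signalling 0 passed in limma, the brightest of them being the calcium release channel gene Itpr1 (0.01, SE 0.09). Among 12 tested relatives of Rgs4, 1 rose, Rgs3, by 0.76 (SE 0.14, limma, adjusted p = 0.0187), whereas a dim second probe of it gave -0.04. Their mean was 0.36 and did not pass (limma, adjusted p = 0.121). The call on Rgs3 was also lost without any one of control replicates 2 and 3 and cKO replicates 2 and 3, at adjusted p-values of up to 0.0701. Among 8 tested relatives of Vsnl1, 1 rose. This was Kcnip3, also known as the calcium-binding repressor DREAM, which read from 6.50 to 6.63 on control arrays and 8.51, 8.02 and 8.64 on those labelled cKO. Kcnip3 rose by 1.81 (SE 0.18, limma, adjusted p = 0.00171), opposite in direction to Vsnl1. Of 11 tested endocytic adaptors and receptors related to the function of Dab2, 0 passed in limma, the brightest being Numb (0.12, SE 0.09).

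**Figure D4:**
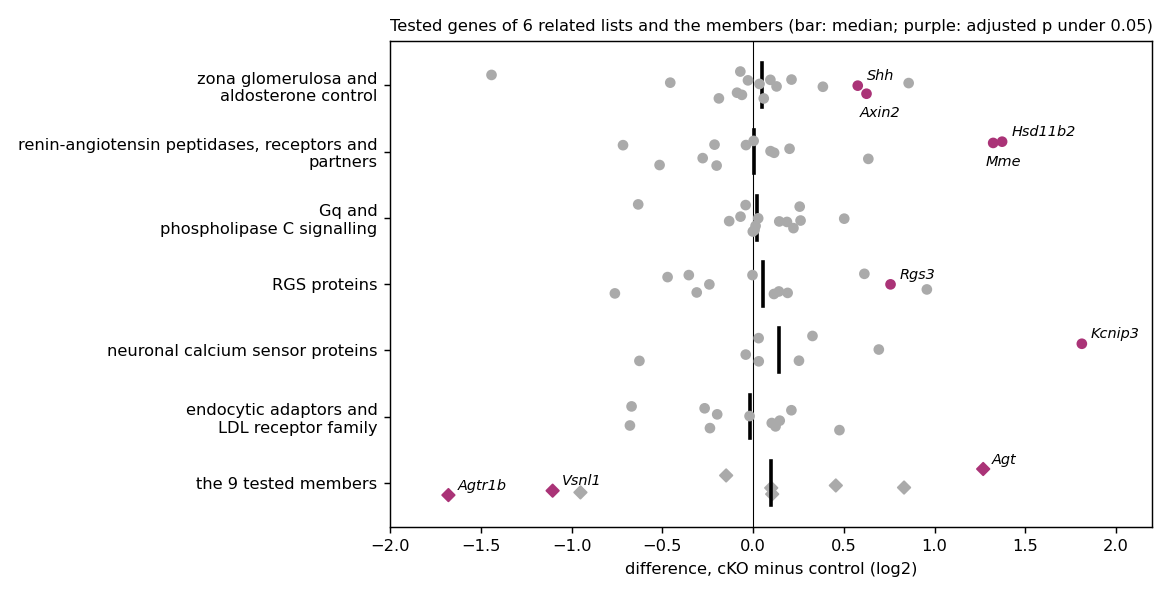
Difference between the arrays labelled cKO and the control arrays (log2, x axis) for each tested gene of 6 related lists (circles) and for the 9 tested members (diamonds); vertical position within a row is random, black bars are medians and purple marks an adjusted p under 0.05. The medians of the lists lie between -0.02 and 0.14, all 6 genes past the threshold in the lists lie above 0, and among the members Agtr1b and Vsnl1 lie below 0 and Agt above.

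Markers of other cells in the gland were read on the same arrays. Of 11 tested genes of the zona fasciculata and general cortex 1 rose, the corticotropin receptor gene Mc2r (0.54), which did not pass under median scaling (0.40, limma, adjusted p = 0.0613). Fdx1, from the same list, was detected on 0 arrays. The summed signal of this list lay at 94024 to 138716 on control arrays and at 101296 to 110643 on those labelled cKO. Both X-zone markers, Pik3c2g and Akr1c18, fell. The call on Akr1c18 was lost with robust variance (limma, adjusted p = 0.138) and without any one of the 3 control arrays or cKO replicate 3, at adjusted p-values of up to 0.0934. Of 10 tested chromaffin markers all 10 lay above 0 and 1, Pnmt, rose (0.97). The call on Pnmt was lost without cKO replicate 2 (limma, adjusted p = 0.0665) and without cKO replicate 3 (limma, adjusted p = 0.0915). The summed signal of the chromaffin list ran from 47970 to 67012 on control arrays and from 63596 to 88931 on those labelled cKO. These ranges overlapped. Vsnl1 is a gene that neurons also make. Of 7 tested smooth muscle and pericyte genes, Acta2 (1.82) and Myh11 (1.37) rose and 0 fell, with Pdgfrb at -0.19 and Notch3 at -0.13. The rise of Myh11 was 0.90 with an offset of 50. Of 8 tested macrophage genes 0 rose and 1 fell. This was Cd68, which fell by 1.13. Only 1 of the 8, Cd14 at 0.19, lay above 0, with Csf1r at -0.06 and a median of -0.26. Pdgfrb, Notch3, Cd14 and Csf1r did not pass, and were picked out with their values known. Emcn of endothelium (0.10) and Slc12a3 of the kidney list (-0.22) did not pass. Whether any of these cell types has a part in the changes of Agtr1b or Vsnl1 was not tested.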

How the data were processed

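RNA was extracted with a Qiagen RNeasy kit, per the labels' protocols. The deposited signals are linear intensity values marked as non-normalized. A detection p-value stands beside each, per the file headers. Between 30.7% and 33.4% of values lay below 0. The deposited series matrix, linear intensity values with medians of 9.98 to 10.05 and an unstated method, served as an alternative. The scanner software is not given in the sources. Signals were corrected with normexp from the detection p-values (limma 3.58.1, R 4.3.3, offset 16), quantile normalized on the log2 scale, and fitted for all 6 arrays with limma's two-sided empirical Bayes model (no covariates, variance trend). Symbols follow RefSeq (GRCm38.p6), where 27740 probes matched by current and 8037 by older symbols, and 9504 kept the file's name.

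The members and lists were chosen with earlier results of these data known. Named genes were the members, Gata6, Cyp11b1, up to 3 genes past the threshold per list or else its brightest, and 4 genes nearest Cyp11b2. Same-numbered arrays did not deviate together from their group means (r of 0.04, 0.04 and -0.01), so the numbers were not taken to pair them. On simulated data for the comparison of the arrays labelled cKO with control, over 19210 probes, the fit recovered 12.5% of changes of 0.5 log2 units, 58.5% of 1 and 92.1% of 2. The simulation changed a smaller share of probes than the 6.49% called in the data, with independent noise for each probe. Its recovery rates therefore need not hold for these arrays. Alternatives covered scaling, offset, the series matrix, filters, variance models, probes, the replicate block and left-out arrays.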

Additional observations from a re-analysis of the deposited data

How the results depend on the processing

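The members past the threshold numbered 3 under 12 of 16 alternatives. Under a stricter filter (detection p under 0.01 on every array) it was 1 of 6 members tested, since Agtr1b and Agt dropped out. Leaving out 1 array gave 2 to 3. The fit with the replicate number as a block (not every array correlated best with its own number) kept the count at 3, with 721 genes called in all and 4 of the pathway genes. The count over all genes was 930. Leaving out control replicate 1 gave 600, control replicate 2 439, cKO replicate 2 502 and cKO replicate 3 398, the highest such count was 960, and 557 without both arrays numbered 1, an alternative chosen after seeing the data. The pathway genes past the threshold, 6, were 2 to 9 with 1 array left out, 10 without both arrays numbered 1 and 11 with array weights. Signs turned in differences that had not passed. Under median scaling these were Agtr1a (-0.033), Dab2 (-0.032), Cyp11b1 (-0.20), Itpr1 (-0.12) and Emcn (-0.034). With 1 array or both arrays numbered 1 left out, Ren1 ranged from -0.17 to 1.48, Cyp11b1 from -0.034 to 0.087 and Itpr1 from -0.042 to 0.062, and Cyp11b1 was -0.00027 without both arrays numbered 1. The cause of these shifts was not tested. Cyp11b2 stayed between -1.32 and -0.58 and passed under 0 of 16 alternatives. Dim signals near background limit the sizes given for Agt, Agtr1b, Agtr2 and the second Cyp11b2 probe. The same holds for other dim genes, among them Hsd11b2, Myh11 and Acer1.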

Other observations

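The arrays that stood out for Ren1 were compared with Cyp11b2 and Agtr1b on the same arrays, as values only. The array labelled cKO replicate 1 had the highest Ren1 value of the 6 (12.37) together with the lowest Cyp11b2 (5.76) and the lowest Agtr1b (5.0). Control replicate 1, second highest for Ren1 (10.45), had the lowest Agtr1b among controls (6.87) and a Cyp11b2 of 7.28, between the other 2 controls. Within each number, the brighter Ren1 probe read higher on the array labelled cKO, by 1.92 for number 1, 0.34 for number 2 and 0.23 for number 3, and the dimmer one by 1.69, 0.50 and 0.45. With the number as a block the Ren1 difference was still 0.83 (SE 0.31, limma, adjusted p = 0.173). The pattern was noticed after the values had been seen and rests on few arrays.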
